A study of Mus musculus with 4 samples.

Results

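The 39 protein-coding Hox genes of the mouse, in 4 clusters, were looked up in the peak lists of a Bio-Myc and a Max ChIP-Seq of embryonic stem cells (ESCs). The members were taken by name from the GENCODE M1 annotation of mm9 (Hoxa, Hoxb, Hoxc or Hoxd followed by a number), out of 22380 annotated protein-coding gene identifiers. Hoxa3 has 2 identifiers, which were counted as 1 gene. For Bio-Myc, chromatin came from 1 stable clone of E14 mouse ESCs (made from BirA-ES cells, which carry the biotin ligase) that expresses Myc with an N-terminal biotin tag from the ubiquitous EF1α promoter, and the tagged protein was captured on streptavidin beads. For Max, the dimerization partner of Myc, an antibody was used on parental wild-type E14 ESCs. All cells were grown with LIF, and the libraries of the mock ChIP on streptavidin and of the IgG ChIP entered only as the controls of peak calling. The labels give parental wild-type cells for both controls, whereas the methods name BirA-ES cells without a tagged protein for the mock ChIP. Each list comes from 1 library, so no value below has a replicate error, and no test between the lists was made. The number of reads is not part of the lists, so depth is unknown.

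Hox genes encode homeodomain transcription factors that give cells their position along the head-to-tail axis and in the limbs. They lie in order in each cluster, and genes with low numbers (3′ or anterior genes) are switched on earlier in the embryo and nearer to the head than genes with high numbers. In undifferentiated ESCs they are textbook targets of Polycomb repression at CpG-rich promoters. Myc and Max bind as a dimer to the E-Box CACGTG, mostly at active promoters, but Max also pairs with other proteins of the family, among them Mxd proteins, Mnt and Mga, and with these partners it takes part in repression. The paper also describes NMyc at many Myc sites in ESCs. The Max list does not show which partner Max had at a site.

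The Max peaks at Hox promoters are best seen beside their E-Boxes. The following sequences, read from mm9 on the reference strand, 5′ to 3′, are the E-Boxes of Hox genes that lay under a Max peak, with 12 bases on either side and CACGTG in capitals. Hoxa genes are transcribed from the other strand, on which the palindrome reads the same.
Hoxd1, chr2:74601004-74601033: gctggctggcgcCACGTGgctgccgccgcc
Hoxa7, chr6:52167522-52167551: agctcgccgcggCACGTGaccgcccacatg
Hoxa4, chr6:52141925-52141954: gcccccgcgcccCACGTGctgcgatccggc
Hoxa3, chr6:52122718-52122747: cgcccccgcggtCACGTGacactccgccgc
Hoxc12, at the TSS, chr15:102767174-102767203: ggcggtagcgccCACGTGagtagagcggcc
Hoxc12, in the coding exon, chr15:102767514-102767543: gcctttcggccgCACGTGcgagttggctcg
Hoxd10, chr2:74529863-74529892: cgggctggggaaCACGTGacctgcaaggag

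A further 6 E-Boxes lay within 100 bp of a Hox TSS but under no Max peak. The following of them are shown in the same way, so that the bases around the same core can be read side by side. The sites also lie in different promoters, and what sets them apart was not tested.
Hoxa5, chr6:52154491-52154520: acgacttcgaatCACGTGcttttgttgtcc
Hoxc5, chr15:102844327-102844356: ggccgctccagtCACGTGactctatttaag
Hoxc11, chr15:102784828-102784857: tctactttggatCACGTGctcggggagaga
Hoxd3, chr2:74570912-74570941: acaagtcgcgacCACGTGattggcgaaata
Hoxd4, chr2:74560021-74560050: gctatttataagCACGTGattccaataaac

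In the Bio-Myc list, none of the 39 Hox genes had a peak within 1 kb of an annotated transcription start site (TSS). In the Max list, 8 did, among them Hoxa3, Hoxa4, Hoxa7, Hoxc10, Hoxc12, Hoxd1 and Hoxd10. The share of Hox genes with a Max peak was 20.5% (95% Wilson interval 10.8 to 35.5%), and that of all protein-coding genes was 34.8% (7788 genes), which lies inside this interval. That holds for the window of 1 kb around any TSS, near the upper end of the interval, and no interval was computed for other windows or TSSs. For Bio-Myc, the share was 0 of 39 (0 to 8.97%), against 14.6% of all protein-coding genes (3275 genes). The intervals cover counting error over genes only, and genes of 1 cluster are neighbours and not independent. The 39 Hox genes had 84 annotated TSSs, and the 22380 protein-coding genes had 70064. Hox genes thus had fewer TSSs per gene at which a peak could be found, and the shares were not matched for this. A gene without a peak is one that did not pass the peak caller's p-value of 1e-08, which is not evidence that the protein is absent from it.

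The largest score at a Hox gene was that of Hoxd1, which is expressed in sensory neurons that detect pain, among other cells. The score that MACS gives a peak is 10 times the negative log10 of its p-value. The Max peak of Hoxd1, from 74600511 to 74601768 on chromosome 2, scored 634 and ranked 563 of the 11570 Max peaks. It covered the TSS of Hoxd1 at 74601037 and also that of the noncoding gene 6720416L17Rik, which runs in the opposite direction from 74600953. Its E-Box lay 16 bp upstream of the Hoxd1 TSS. The 200 bases before this TSS, chr2:74600837-74601036 on the plus strand, are shown because they hold the E-Box under the strongest Hox peak.
Hoxd1 upstream: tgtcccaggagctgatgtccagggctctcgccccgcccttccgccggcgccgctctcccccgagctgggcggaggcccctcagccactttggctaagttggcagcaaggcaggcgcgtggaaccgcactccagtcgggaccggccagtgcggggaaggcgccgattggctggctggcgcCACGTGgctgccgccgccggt

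The Hoxa cluster held 4 of the 8 promoters with a Max peak. At Hoxa7, which acts in the patterning of thoracic vertebrae, the peak from 52166714 to 52167967 on chromosome 6 scored 274. It covered internal TSSs of the gene, and its E-Box was 30 bp upstream of one of them. At Hoxa4, which is expressed from the hindbrain and neck backwards, the peak from 52141856 to 52142782 scored 253 and began 104 bp upstream of the TSS, with an E-Box 185 bp upstream of it. At Hoxa3, needed for thymus and parathyroid, the peak from 52122325 to 52123071 scored 167 and covered an internal TSS together with that of the noncoding gene Gm15050, which runs the other way. Its E-Box was 82 bp upstream of the Hoxa3 TSS, in an exon annotated as UTR. At each of Hoxa3, Hoxa4 and Hoxa7, the peak thus held an E-Box.

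Of the more posterior genes, Hoxc10, which marks lumbar segments and hindlimb, had its TSS covered by a Max peak (102796856 to 102798137 on chromosome 15) that scored 227. The peak was the widest of those in the clusters, at 1282 bp, and Hoxc10 was the 1 gene among the 8 with no CACGTG within 1 kb of its TSS. Hoxc12 had a peak from 102767112 to 102767857 with a score of 149.7 over its TSS, with an E-Box across the TSS itself and another 338 bp into the gene. Hoxd10, a gene of lumbar motor neurons and limb, had the weakest peak, from 74529536 to 74530132, with a score of 80.8, next to the lowest score that the lists allow (80). Its E-Box was 728 bp downstream of the TSS. The 200 bases before Hoxa4, on the strand of the gene, are shown as a second promoter with an E-Box under its Max peak.
Hoxa4 upstream, chr6:52141753-52141952, minus strand: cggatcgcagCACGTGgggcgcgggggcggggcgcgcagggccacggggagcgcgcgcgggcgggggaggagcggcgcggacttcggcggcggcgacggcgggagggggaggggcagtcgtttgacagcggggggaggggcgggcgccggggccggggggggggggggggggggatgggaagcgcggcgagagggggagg

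By cluster, the Hoxa cluster (chromosome 6, 11 genes) had a Max peak at 4 promoters, the Hoxc cluster (chromosome 15, 102751534 to 102867274, 9 genes) at 2 and the Hoxd cluster (chromosome 2, 74506367 to 74603200, 9 genes) at 2. None of the 10 genes of the Hoxb cluster (chromosome 11, 96055630 to 96229570) had one. Counted as peaks anywhere in the cluster, Max had 4 in Hoxa, 2 in Hoxb, 2 in Hoxc and 3 in Hoxd. By paralog number, 4 of 12 genes of groups 1 to 4 had a Max peak, 1 of 11 of groups 5 to 8 and 3 of 16 of groups 9 to 13. No test was made of these differences, which rest on 1 library and a few genes each.

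**Figure D1:**
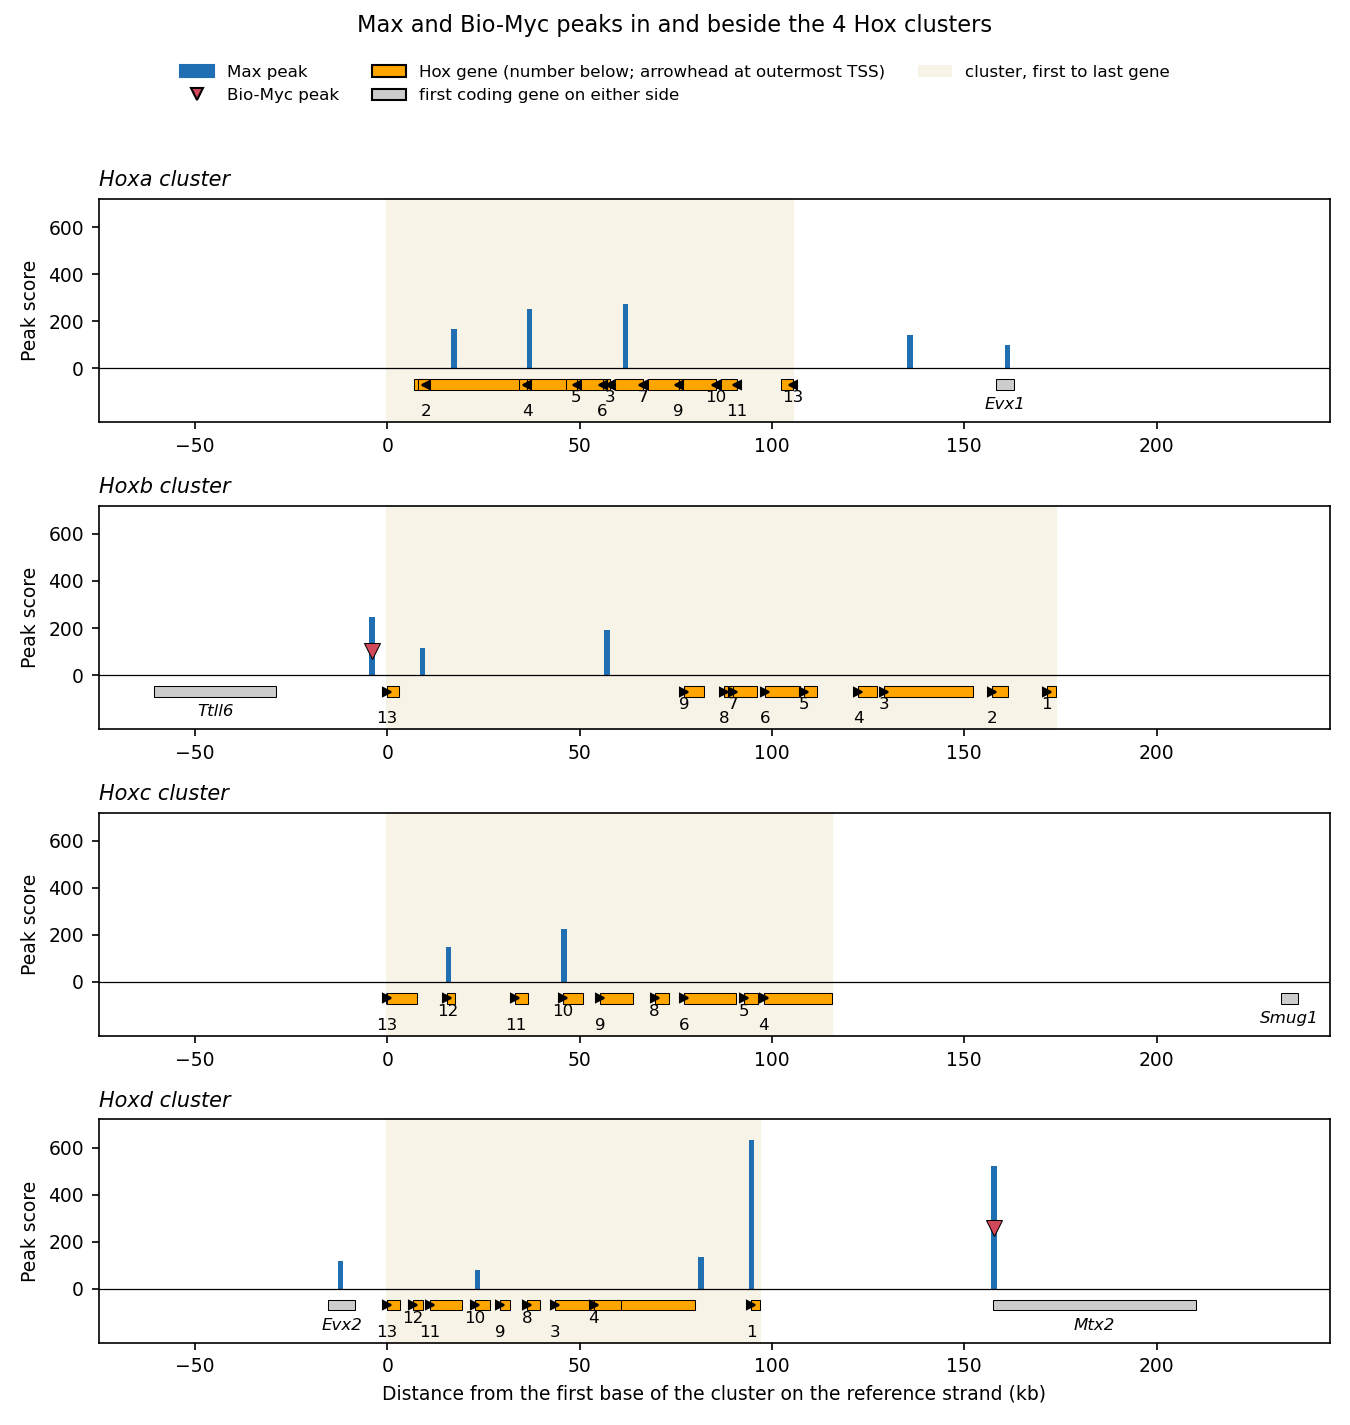
Score of each Max peak (blue bars) and Bio-Myc peak (red triangles) in the 4 Hox clusters (shaded) and beside them, against the distance from the first base of the cluster in kb, with Hox genes as orange boxes the number of each gene below and the first coding genes on either side in grey. No Bio-Myc peak lies within a cluster, 10 of the 11 Max peaks there are drawn, with 38 of the 39 genes, and the 2 Bio-Myc peaks drawn lie beside the Hoxb and Hoxd clusters on Max peaks scored 248 and 520. Scores of the 2 lists share an axis only for display and are not comparable in height.

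Inside the clusters, from the first to the last gene, the Max list held 11 peaks and the Bio-Myc list none. The clusters span 492 kb, and the Max peaks amounted to 2.24 per 100 kb against 0.436 in the genome. The clusters are also dense in genes, with 7.93 Hox genes per 100 kb against 0.843 protein-coding genes in the genome. By length alone, 492 kb would hold 0.734 Bio-Myc peaks and 2.14 Max peaks at the density of the genome. By number of promoters, 39 genes would hold 5.71 with a Bio-Myc peak and 13.6 with a Max peak at the share of all protein-coding genes. The Bio-Myc count of 0 was thus within 1 peak of the figure by length and more than 5 genes below the figure by promoters.

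Of the 11 Max peaks, 8 were at Hox promoters and 3 lay elsewhere in the clusters. In the long stretch between Hoxb13 and Hoxb9, a peak from 96064421 to 96065144 with a score of 115 covered the TSS of the long noncoding gene Gm11538 and held 1 E-Box. A second peak there, from 96112192 to 96113234, scored 193 and covered the TSS of Gm53, annotated as protein-coding, without an E-Box. The third, from 74587421 to 74588351, scored 134 and lay in an exon of 6720416L17Rik, 3690 bp from the nearest TSS of Hoxd3, with 1 E-Box. In all, 8 of the 11 peaks covered an annotated TSS and 6 covered one of a gene that is not a Hox gene. Of the 32 other annotations within the clusters, 6 had Max at the promoter and none Bio-Myc. Some microRNAs are among them both as a microRNA and as a processed transcript, and no share over like annotations of the genome was counted. The 6 microRNA genes of the clusters, of the Mir10, Mir196 and Mir615 families, had none in either list, with the nearest Max peak 5635 bp from Mir196a-2 and 65245 bp from Mir10a.

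The scores of the 11 peaks were close to those of Max peaks in general. Their median was 167 (80.8 to 634), against 160 for the whole list, and 6 of the 11 were above the median of the list. Their median width was 927 bp against 820 bp.

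Distances to the nearest peak were taken from any TSS of a gene. The median over the 39 Hox genes was 12.5 kb for Max and 159 kb for Bio-Myc, against 22.1 kb and 113 kb over protein-coding genes. Of the 31 Hox genes without a Max peak at the promoter, 8 had one at 1 to 10 kb, 17 at 10 to 50 kb and 6 farther away. Those 8 were Hoxa2, Hoxa6, Hoxa9, Hoxb13, Hoxc9, Hoxd3, Hoxd9 and Hoxd11, and several of them share the peak of a neighbour. The 6 farthest from Max were the neighbours Hoxb1 to Hoxb5, of the hindbrain and neck end of the cluster, and Hoxc4. Hoxb1, a gene of hindbrain segment identity, was the farthest, at 114 kb. In the Hoxa cluster the median distance to Max was 6.32 kb, in Hoxd 9.05 kb, in Hoxc 15.6 kb and in Hoxb 45.6 kb. For Bio-Myc the order was another, with medians of 107 kb in Hoxb, 128 kb in Hoxd, 195 kb in Hoxa and 238 kb in Hoxc.

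**Figure D2:**
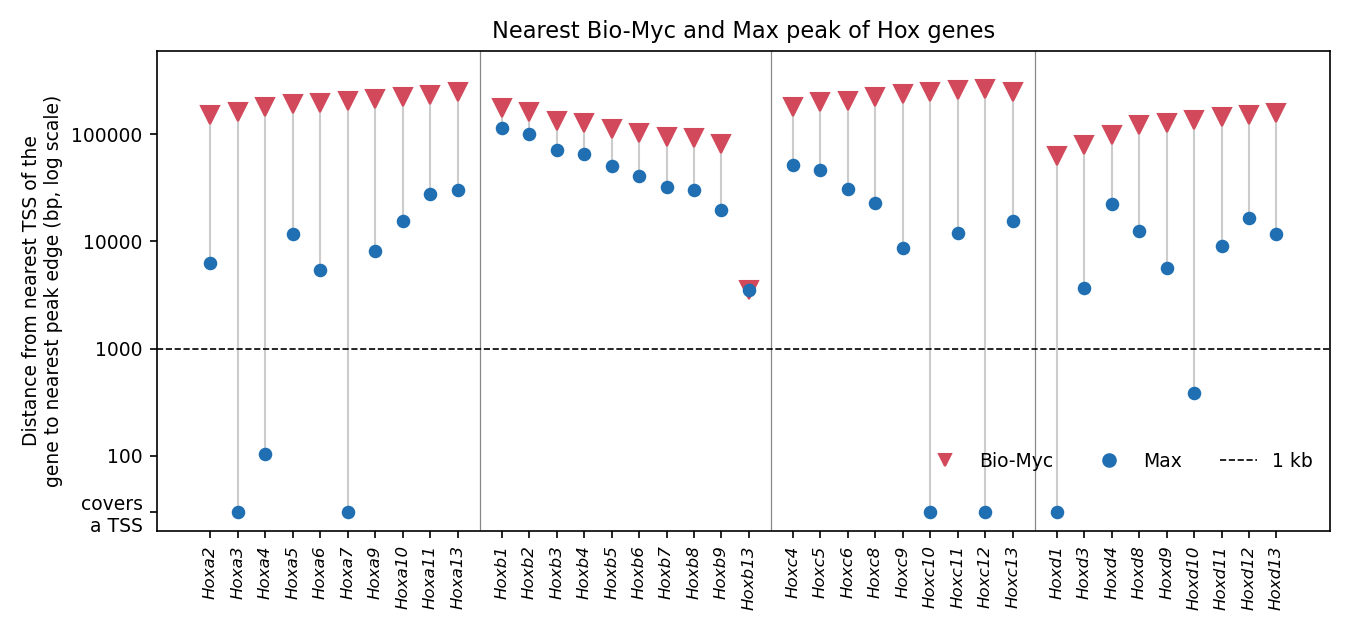
Distance in bp, on a log axis, from the nearest TSS of 38 of the 39 Hox genes to the nearest Bio-Myc peak (red triangles) and the nearest Max peak (blue circles). The lowest tick stands for a peak that covers a TSS and the dashed line for 1 kb. Bio-Myc lies beyond 60 kb for every gene drawn except Hoxb13, at 3.53 kb, whereas the genes with a Max peak at the promoter lie within 1 kb of it.

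Hoxb13, a gene of the prostate and the tail, was the only Hox gene with a Bio-Myc peak within 60 kb. That peak, from 96051364 to 96052099 on chromosome 11, scored 101 and lay 3531 bp upstream of the TSS. It was overlapped by a Max peak (96051199 to 96052096) that scored 248. The site lay between genes and held no CACGTG. The next nearest site was the promoter of Mtx2, a mitochondrial gene 60660 bp beyond Hoxd1, where a Bio-Myc peak scored 257 and a Max peak 520. Of the 8 protein-coding genes first met outside the clusters, 6 had no peak within 1 kb of a TSS in either list. The exceptions were Mtx2 and Skap2, which lies 142818 bp beyond the Hoxa cluster and had Bio-Myc peaks (scores of 106 and 93.2) without a Max peak. Evx1 and Evx2, homeobox genes next to the Hoxa and Hoxd clusters, had Max peaks in coding exons rather than at the promoter, with scores of 98.6 and 119.

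A Max peak without a Bio-Myc peak is common in these lists. The Bio-Myc list is much the shorter, with 3962 peaks, which limits the share of Max peaks that can overlap one. Of the Max list (11570 peaks), 26.2% shared at least 1 bp with a Bio-Myc peak, and of the 7788 protein-coding genes with a Max peak at the promoter, 63.6% had no Bio-Myc peak there. All 8 Hox genes with a Max peak were of this kind. The overlap rose with the Max score. Between scores of 80 and 100 it was 9.95% (8.76 to 11.3%), between 150 and 250 it was 26.6% (25.0 to 28.2%), and from 600 upward it was 59.4% (55.5 to 63.1%). The Hoxd1 peak therefore stood among peaks most of which had a Bio-Myc peak. Of the 563 Max peaks that scored 634 or more, 338 overlapped one (55.9 to 64.0%), and Hoxd1 was 1 of the 225 that did not. The other 10 peaks scored below 400, where the share with a Bio-Myc peak was at most 41.9% in any range of scores.

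**Figure D3:**
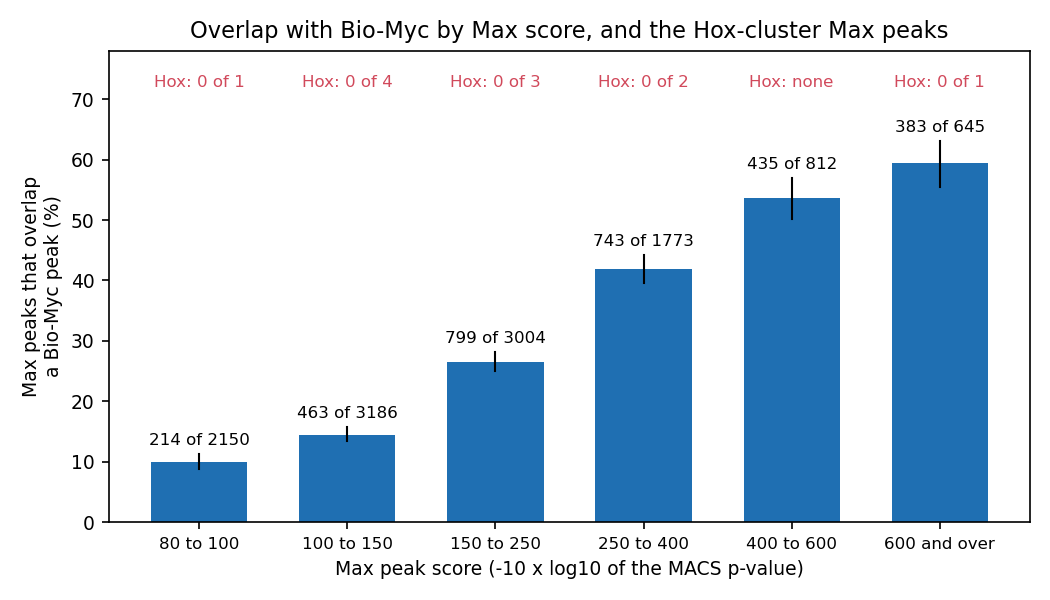
Percent of all Max peaks that overlap a Bio-Myc peak, by Max score, with 95% Wilson intervals and the counts above the bars. The top line gives, for each range of scores, how many of the 11 Max peaks in the Hox clusters overlap one. The share goes from 9.95% in the lowest range to 59.4% in the highest, and none of the 11 peaks overlaps a Bio-Myc peak.

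E-Boxes lay at most of the Hox promoters. CACGTG occurred within 1 kb of a TSS in 21 of the 39 genes (53.8%), and in 8736 of the 22380 protein-coding genes. The sequence is a palindrome, so a match counts once for both strands. Of the 21 genes with an E-Box, 7 had a Max peak (33.3%, 17.2 to 54.6%), and of the 18 without one, 1 had (Hoxc10). The E-Box and the peak were counted separately here, so the E-Box of a gene need not lie under its peak. Among all protein-coding genes with an E-Box, 50.5% had a Max peak and 23.9% a Bio-Myc peak, which no Hox gene had. The first of these shares lies inside the interval of the Hox genes.

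Hox promoters were also compared with others by CpG content. The ratio of observed to expected CpG, over 500 bp on either side of the outermost TSS, had a median of 0.626 at Hox genes, from 0.256 at Hoxd4 to 0.996 at Hoxa5, and of 0.549 at all protein-coding genes. At the 8 Hox genes with a Max peak the median was 0.665 (0.594 to 0.919), and at the 31 without it was 0.572. The Max peak could lie at any TSS, so the ratio need not describe the promoter with the peak. At Hoxa3 and Hoxa7 the peak lay 3376 and 3886 bp from the outermost TSS. The same limit applies to the shares by CpG ratio below. Hoxa5, with the highest ratio and an E-Box 78 bp downstream of its TSS, had no Max peak, nor did Hoxd4, with the lowest ratio and an E-Box across its TSS. Of the 20 Hox genes at or above the Hox median, 6 had a Max peak (14.5 to 51.9%) and none a Bio-Myc peak. Of all protein-coding genes at or above the same ratio, 60.5% had a Max peak, a share above the interval of the Hox genes, and 27.6% a Bio-Myc peak. The ratio sets only a lower bound, so the CpG content above it was not matched.

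Counted one by one, the 39 genes had 34 E-Boxes within 1 kb of a TSS, of which 7 were under a Max peak (20.6%, 10.3 to 36.8%) and none under a Bio-Myc peak. Of the 12755 E-Boxes at protein-coding genes, 26.3% were under a Max peak and 14.5% under a Bio-Myc peak. Within 100 bp of a TSS, 4 of 10 Hox E-Boxes were under Max, namely those of Hoxa3, Hoxa7, Hoxc12 and Hoxd1, against 46.5% of such sites in all genes. Farther out the shares were 1 of 7 at 101 to 250 bp, 1 of 6 at 251 to 500 bp and 1 of 11 beyond, against 36.4%, 26.7% and 12.5%. The E-Boxes within 100 bp that were free of Max, printed above, include those of Hoxa5, Hoxc5, Hoxc11, Hoxd3 and Hoxd4. In the 24 bases around the core, the G and C content was 75.0% in the median of the 7 Hox sites under Max (66.7 to 87.5%) and 50.0% in that of the 27 others (20.8 to 87.5%). At all protein-coding genes the medians were 62.5% and 50.0%. This measure was chosen after the sequences were seen.

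**Figure D4:**
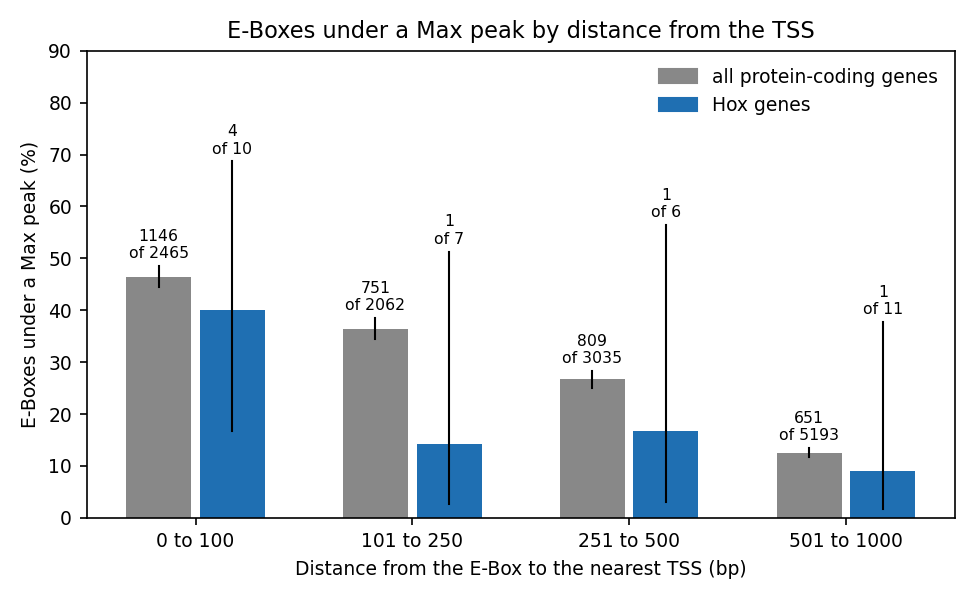
Percent of CACGTG sites under a Max peak, by distance from the nearest TSS in bp, for all protein-coding genes and for Hox genes, with 95% Wilson intervals. The share falls with distance from 46.5% to 12.5% in all genes, and is 40.0%, 14.3%, 16.7% and 9.09% at Hox genes, with wide intervals because each range holds 6 to 11 sites.

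Within the clusters as a whole there were 71 E-Boxes, of which 9 (12.7%) were under a Max peak, against 2.13% of the 262836 in the genome. The genome has fewer genes per length (0.843 protein-coding genes per 100 kb against 7.93 Hox genes), so this contrast is not matched for promoters. Within 1 kb of a TSS the share at Hox genes was not higher, at 20.6% (10.3 to 36.8%). The 26.3% of all protein-coding genes lies inside this interval. In the central 500 bp of the 11 Max peaks, 7 held CACGTG, against 30.7% of all Max peaks and 27.3% of those without a Bio-Myc peak. The noncanonical E-Box CACGCG was found in 7 of the 11 on either strand, against 32.7% of all Max peaks, and CATGTG in 3, against 21.9%. Other partners of Max have been described at promoters with E2F6 sites and with T-box sites. GGCGGGA, a sequence that E2F factors bind, was found in 1 of the 11, against 24.2%, and AGGTGTGA, a T-box sequence, in none, against 2.28%. Over whole peaks, a count added after the data were examined, GGCGGGA was in 5 of the 11, against 32.9% of all Max peaks, so its place relative to Max peaks in general depended on the window. The other whole-peak counts were 8 for CACGTG (38.0% of all Max peaks), 7 for CACGCG (40.1%), 4 for CATGTG (32.6%) and 0 for AGGTGTGA (4.18%). These matches describe the letters in the window and do not tell which protein was there.

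Hox genes were set beside lists of genes with related roles, for which the shares of all protein-coding genes (14.6% for Bio-Myc and 34.8% for Max) are again the background. Of 15 other homeobox genes related to Hox, such as the ParaHox genes, none had a Bio-Myc peak (0 to 20.4%) and 6 had a Max peak (40.0%, 19.8 to 64.3%), namely Cdx1, Cdx2, Gsx1, Mnx1, En1 and En2. Of 55 lineage regulators of other families, listed as known Polycomb targets but including Foxd3 and Tbx3, which undifferentiated mouse ESCs express, 1 had a Bio-Myc peak (Lhx3, a gene of motor neurons and pituitary; 1.82%, 0.322 to 9.61%) and 17 a Max peak (30.9%, 20.3 to 44.0%). Both Max shares were near the background, which lay inside their intervals. The intervals of these lists overlapped that of the Hox genes for both proteins, and Max without Bio-Myc was found in both lists, at 6 and 16 genes. Among 9 TALE proteins, the homeodomain cofactors with which Hox proteins bind DNA, Pknox1 had a Bio-Myc peak (11.1%, 1.99 to 43.5%), and Pbx3 and Pbx4 had a Max peak (22.2%, 6.32 to 54.7%), with both backgrounds inside these wide intervals.

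The genes that control Hox expression gave other values. Of 18 such genes, 10 had a Bio-Myc peak (55.6%, 33.7 to 75.4%) and 13 a Max peak (72.2%, 49.1 to 87.5%), with both at 9. Those with a Bio-Myc peak included Suz12, Ezh2 and Eed, the core of Polycomb repressive complex 2, Ring1 and Cbx7 of Polycomb repressive complex 1, and Wdr5 and Ash2l of the complexes that methylate histone H3 at active genes. Suz12 and Ezh2 were known Myc targets and served the study as positive controls of the ChIP, and the list was chosen with earlier results known, so its share is a description and no independent contrast with the Hox genes. Rnf2, Bmi1, Kdm6b and Mll1 had no peak within 1 kb of a TSS in either list. For Mll1 and Kdm6b this rested on the window, since a Max peak lay 1091 bp from a TSS of Mll1 and another 1405 bp from one of Kdm6b. The median score of the Max peaks was 256 for these regulators, 197 for the 8 Hox genes and 123 for the lineage regulators. It was 161 for the related homeobox genes and 174 for the TALE cofactors. Over all protein-coding genes with a Max peak it was 196, close to the value of the Hox genes.

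**Figure D5:**
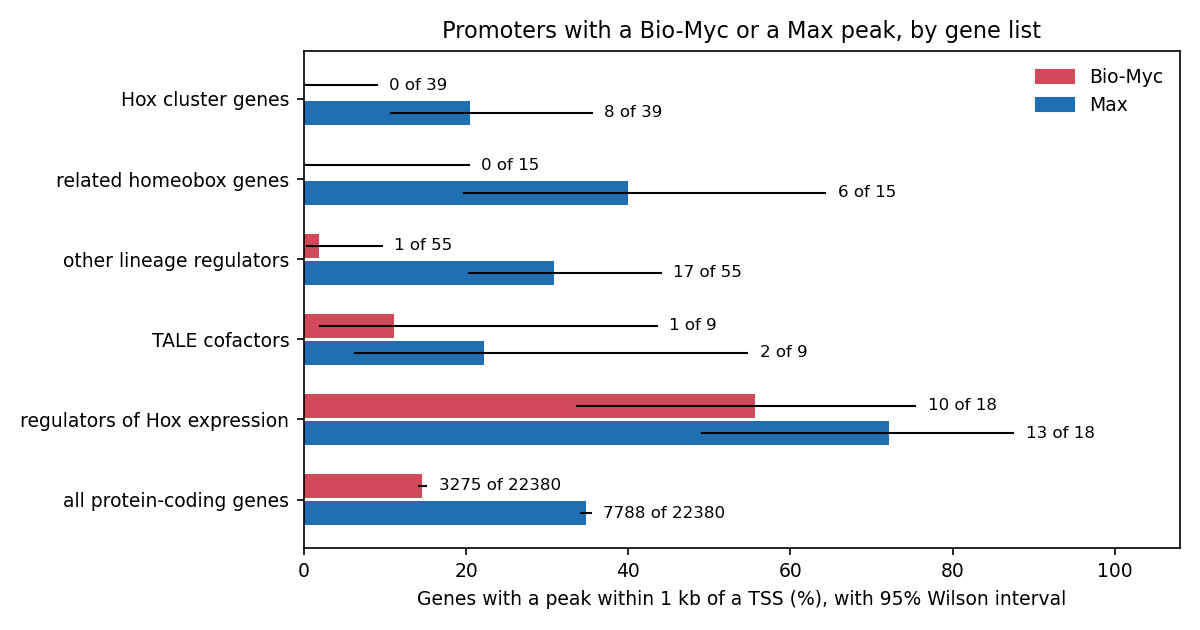
Percent of genes with a Bio-Myc or a Max peak at the promoter (1 kb on either side of a TSS), for the Hox genes, 4 lists of related genes and all protein-coding genes, with 95% Wilson intervals. Hox genes are at 0 for Bio-Myc and 20.5% for Max, and the regulators of Hox expression at 55.6% and 72.2%.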

How the data were processed

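The authors sequenced 1 library for each ChIP, aligned the reads to mm9 (Bowtie 0.12.7, unique hits, at most 2 mismatches), collapsed duplicates and ran MACS 1.4.1 for peaks, with the mock or IgG ChIP as control, at a p-value of 1e-08. CASAVA 1.8 is also in the submitters' processing notes. The deposited lists give position and a score, defined by the authors as 10 times the negative log10 of the p-value. Unique mapping loses near-identical sequence, and the number of peaks at a fixed p-value depends on depth, which is unknown. Scores are therefore to be compared only within a list, also where those of both lists are printed or drawn together.

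From these lists, peaks were assigned to any annotated TSS of GENCODE M1 (mm9) within 1 kb, by an overlap of at least 1 bp. Sequence was read from the mm9 genome. Python 3.11.15, pysam 0.24.0, numpy 2.4.6 and matplotlib 3.10.9 were used, and 7 of 7 steps returned the known answers on simulated data. All 39 Hox genes and all peaks in the clusters were counted, and the values of 1 gene and 1 upstream sequence are not reported here. The members and gene lists were chosen with earlier results of these data known. Intervals are 95% Wilson intervals and cover counting error only. Alternatives were other promoter windows and TSSs, higher scores, equal numbers of peaks, wider clusters, another overlap and another E-Box. Of 56 lineage regulators, Sox1 was not found by name. The control libraries were not analysed here.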

Additional observations from a re-analysis of the deposited data

How the results depend on the processing

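The Bio-Myc count of 0 Hox genes held under 9 of 10 alternatives. With a window of 5 kb it was 1, Hoxb13, which then also had both peaks (1 gene). The Max count of 8 Hox genes ranged from 4 to 10 and was within 1.5 times under 7 of 10 alternatives. It was 5 when the peak had to cover the TSS (Hoxa3, Hoxa7, Hoxc10, Hoxc12 and Hoxd1), 5 at a score of at least 150 (Hoxa3, Hoxa4, Hoxa7, Hoxc10 and Hoxd1) and 4 with 3962 peaks in each list (Hoxa4, Hoxa7, Hoxc10 and Hoxd1). The latter settings left 6 and 4 of the 11 Max peaks in the clusters, and 5289 and 4878 of the 8231 protein-coding genes with either peak. Counted for Max alone, as for the Hox genes, they left 5066 and 3467 of the 7788 protein-coding genes. Clusters extended by 10 kb held 1 Bio-Myc peak, and 1 overlapped a Max peak. With the outermost TSS alone, Hoxa3 and Hoxa7 left the Max count (6 genes), and 7201 of the 7788 protein-coding genes stayed. When the peak had to cover the TSS, 6705 of the 7788 stayed, beside the 5 Hox genes. No interval was computed for these settings. Whether the share of all genes lies inside that of the Hox genes is therefore given for the main window only. The number of Hox genes with CACGTG was 14 to 31 across 3 alternatives, 31 with CACGCG included. Leaving out chromosome 8, added after the data were examined, left 7573 genes with either peak. Over whole peaks instead of their central 500 bp, also added later, GGCGGGA was in 5 instead of 1 of the 11 Max peaks of the clusters. No paired analysis was possible because each ChIP has 1 library and the labels carry no replicate numbers, and for the same reason no replicate could be left out. Depth is unknown, so a missing Bio-Myc peak may lie under the p-value limit.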
